A study of Arabidopsis thaliana with 7 samples.

Results

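AT5G60630, AT5G18130 and AT4G33810 are 3 Arabidopsis thaliana genes whose transcripts gave lower array signals in developing seeds of the myb5 mutant than in wild-type seeds. Among probe sets naming exactly 1 gene, only theirs were at least 2-fold lower in myb5 with no overlap between the genotypes. Each gene was read by a single such probe set, 247610_at, 250028_at and 253297_at. In all, 10 probe sets met this rule, and the others name no gene or several and are not described here. The 3 genes make up 3 of the 22746 probe sets tested, and 3 of the 13513 that name exactly 1 gene. They were chosen by their intensities in these same arrays, namely the size of the genotype difference and the lack of overlap, so those differences are a description and carry no test.

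The study measured whole developing seeds, from the globular to the walking-stick stage of the embryo, on Affymetrix arrays. There were 4 samples of wild-type Columbia plants and 3 samples of plants carrying the myb5-1 allele, all called biological replicates in the series design. Both genotypes were raised side by side on soil in continuous light, and the seeds were freed from the siliques before total RNA was taken and amplified in 2 cycles. The labels do not say what kind of mutation myb5-1 is, and MYB5 transcript was not analysed here.

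MYB5 is a transcription factor of the MYB family that acts with bHLH proteins and the WD-repeat protein TTG1. These complexes are known in the seed for the mucilage and tannins of the seed coat, and elsewhere for the shape of leaf hairs. The tables used here give no product for any of the 3 genes. As general background, AT4G33810 belongs to glycoside hydrolase family 10, whose characterised members cut the backbone of xylan, a polysaccharide of plant cell walls. No role is given here for AT5G60630 or AT5G18130.

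All values are signal intensities, 1 per probe set and array, which the submitters had scaled to the same trimmed mean in each array. Differences are myb5 minus wild type on quantile-normalized log2(intensity + 16), with the standard error of a limma fit across all probe sets, and the added 16 makes the difference of a dim probe set smaller. Probes differ in how strongly they bind, so the intensity of a probe set shows how it varies between arrays and not how its transcript compares with others. A whole seed holds seed coat, endosperm and embryo together, so fewer cells of a type and less RNA per cell cannot be told apart.

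AT5G60630 had a strong signal in wild-type seeds and a weaker one in every myb5 sample. Its intensities were 2276, 1417, 1033 and 1267 in wild-type replicates 1 to 4. They were 249, 824 and 635 in myb5 replicates 1 to 3. All wild-type samples lay above all myb5 samples, but myb5 replicate 1 stood far below the other two mutant samples. The means were 1498 ± 542 (SD, n = 4) and 569 ± 293 (SD, n = 3), which gave -1.44 (standard error 0.43) as the log2 difference. Without myb5 replicate 1 this difference was -0.94, which is under 2-fold. In wild type the probe set ranked at the 96.1st to 98.8th percentile of the array, and in myb5 at the 81.3rd to 94.9th. A percentile places a probe set among all those of its array and is no measure of transcript number.

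AT5G18130 had a signal near the middle of the array in wild-type seeds and a dim one in myb5 seeds. In wild-type replicates 1 to 4 its intensities were 104, 57.7, 29.5 and 39.6. In myb5 replicates 1 to 3 they were 24.8, 19.6 and 4.76. Here the sample that stood low was myb5 replicate 3, below the added constant, whereas the highest mutant sample, replicate 1, came close to the lowest wild-type sample. The means were 57.7 ± 33.1 (SD, n = 4) and 16.4 ± 10.4 (SD, n = 3), and on the log2 scale the genotypes differed by -1.22 (standard error 0.37). The probe set ranked at the 41.3rd to 63.97th percentile in wild type and at the 14.7th to 37.6th in myb5. No detection call was used, so how much of such a dim signal is transcript was not tested. With an added constant of 1 the log2 difference was -2.0, and with 64 it was -0.61, so its size depends on that constant.

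AT4G33810, the glycoside hydrolase gene, had a moderate signal that was lower in each myb5 sample than in any wild-type sample. Wild-type replicates 1 to 4 gave 136, 97.9, 63.6 and 87.6. The myb5 replicates 1 to 3 gave 30.8, 53.1 and 40.3. The mutant samples lay closer together here than for the other genes, with replicate 1 again the lowest. The means were 96.4 ± 30.3 (SD, n = 4) and 41.4 ± 11.2 (SD, n = 3), with the log2 difference at -1.01 (standard error 0.24). It sits at the edge of the rule, since the difference was -0.95 on the intensities as deposited. With an added constant of 64 it was -0.63. Its percentiles ran from 54.1 to 69.7 for wild type and from 41.1 to 49.6 for the mutant.

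**Figure D1:**
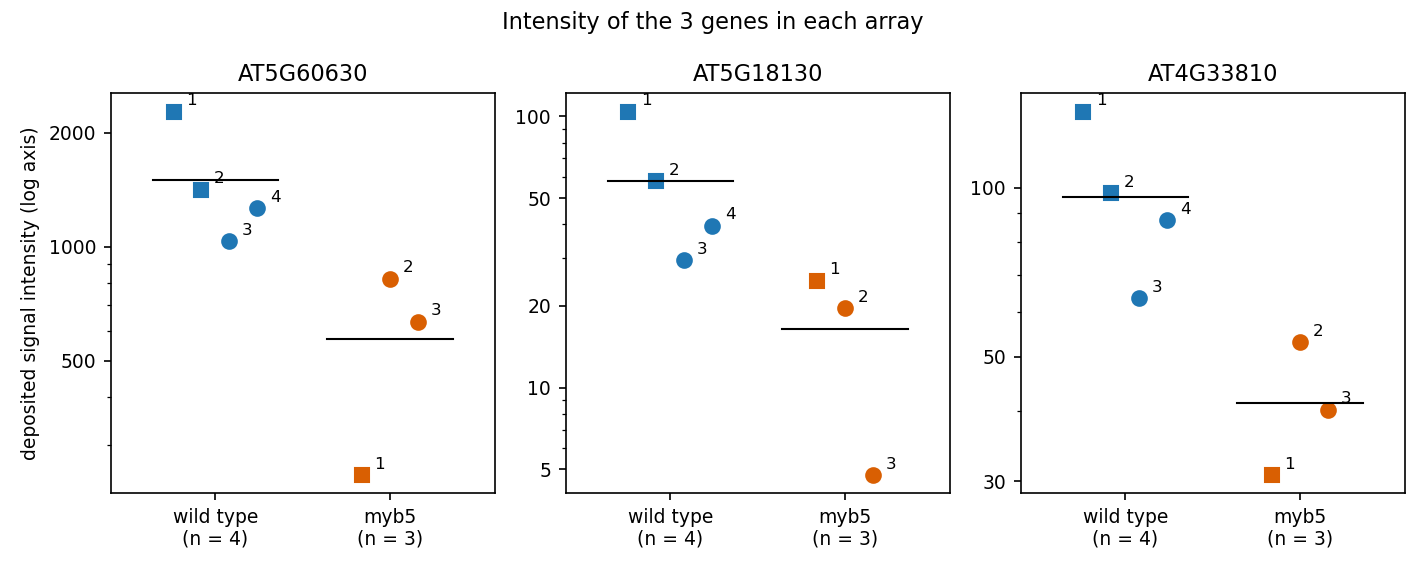
Deposited signal intensity (log axis) of AT5G60630, AT5G18130 and AT4G33810 in the 4 wild-type and 3 myb5 arrays. Each point is an array with its replicate number, the bar is the mean, and squares mark wild-type replicates 1 and 2 with myb5 replicate 1. No myb5 point reaches a wild-type point in any panel, and the low point is myb5 replicate 1 for AT5G60630 and AT4G33810 and myb5 replicate 3 for AT5G18130.

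The gap between the genotypes was narrow beside the spread within them. For AT5G60630 the lowest wild-type intensity was 1.25 times the highest myb5 intensity, while wild-type samples differed among themselves by up to 2.20-fold and myb5 samples by up to 3.30-fold. For AT5G18130 the gap was 1.19-fold, against ranges of 3.53-fold in wild type and 5.22-fold in myb5. For AT4G33810 it was 1.20-fold, against 2.14-fold and 1.72-fold. All 3 genes thus had no overlap by a margin smaller than the range of either genotype.

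These genes also varied more within a genotype than most probe sets of like brightness. The pooled SD within genotypes was 0.67 on the log2 scale for AT5G60630, against a median of 0.26 for 902 probe sets within 0.5 of its mean level. It was larger than the SD of 92.7% of them. For AT5G18130 the SD was 0.57, larger than in 90.8% of 3787 such probe sets. For AT4G33810 it was 0.35, larger than in 74.2% of 3730.

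Across all probe sets, 10 of 22746 (0.044%) met the rule of a 2-fold lower level without overlap. Among probe sets naming 1 gene, 3 of 13513 (0.0222%) did, and these are the 3 genes themselves. Dropping the size, 493 probe sets (2.17%) lay lower in myb5 without overlap. Dropping the lack of overlap, 25 probe sets (0.11%) were at least 2-fold lower, 7 of them (0.0518%) naming 1 gene. The limma fit called 1 probe set (0.0044%) at an adjusted p of 0.05, lower in myb5, and it is none of the 3 genes. That call was lost with the replicate number as a block (0 calls) and within each of the 2 sets into which the arrays split (0 and 0 calls), and without myb5 replicate 1 there were 2. The count of 10 moved to 112 with an added constant of 1, to 6 with 64, to 75 without myb5 replicate 1, to 28 without wild-type replicate 3 and to 16 without wild-type replicate 4. At an unadjusted p of 0.05, 788 probe sets (3.46%) lay under the threshold.

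**Figure D2:**
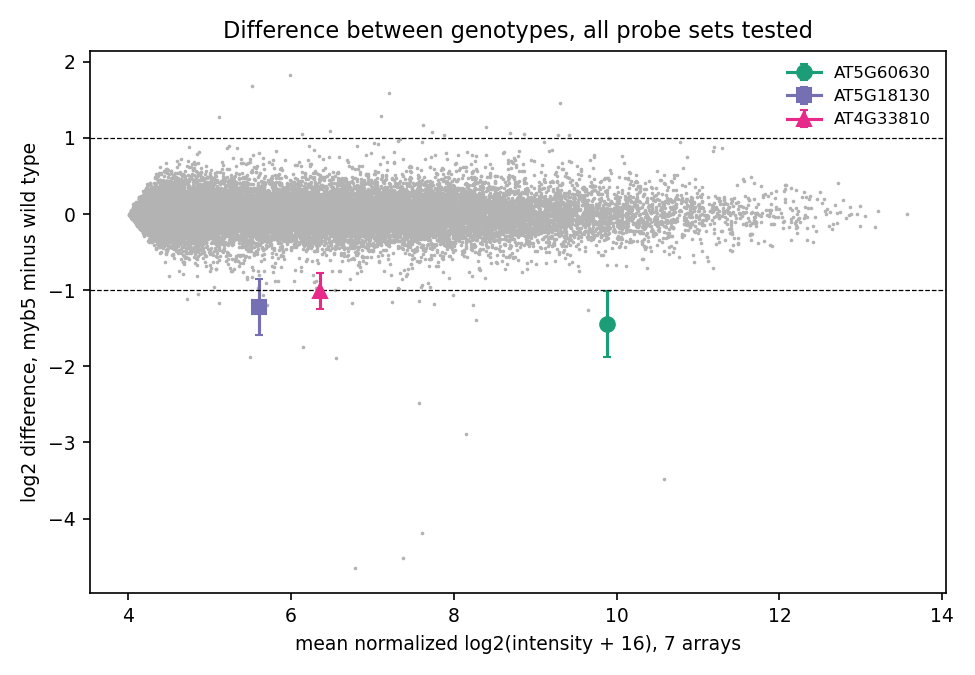
Log2 difference between the genotypes (myb5 minus wild type) against the mean normalized log2 level over 7 arrays, for all 22746 probe sets tested in grey. The 3 genes are marked with their standard errors, at -1.44, -1.22 and -1.01, and dashed lines show a 2-fold difference either way.

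The genes on either side of the threshold show what the rule took and left. Just outside it by size, without overlap, were QQS, a gene without known relatives in other species that acts on starch content, at -0.97, AT1G17860 at -0.90 and LCR67, a defensin-like gene, at -0.82. The LCR67 value came from a single array, since its intensity was 128 in wild-type replicate 2 and between 0.43 and 0.83 in the other 6 arrays, where the lack of overlap held only after normalization. Past 2-fold but with overlapping genotypes were AT1G28710 at -1.06, JMT, which makes methyl jasmonate, at -1.26, and AT3G52550 at -1.89. In each of these, wild-type replicate 3 was the lowest wild-type sample, at 8.74 for AT1G28710, 376 for JMT and 41.5 for AT3G52550, and that sample made the overlap.

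Within wild type, the 3 genes ordered the samples in the same way. Replicate 1 was the highest, followed by replicates 2 and 4, and replicate 3 was the lowest. Over all probe sets, 1457 of 22746 (6.41%) showed this order. In myb5 the genes went apart: AT5G60630 and AT4G33810 were highest in replicate 2 and lowest in replicate 1, whereas AT5G18130 was highest in replicate 1 and lowest in replicate 3.

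**Figure D3:**
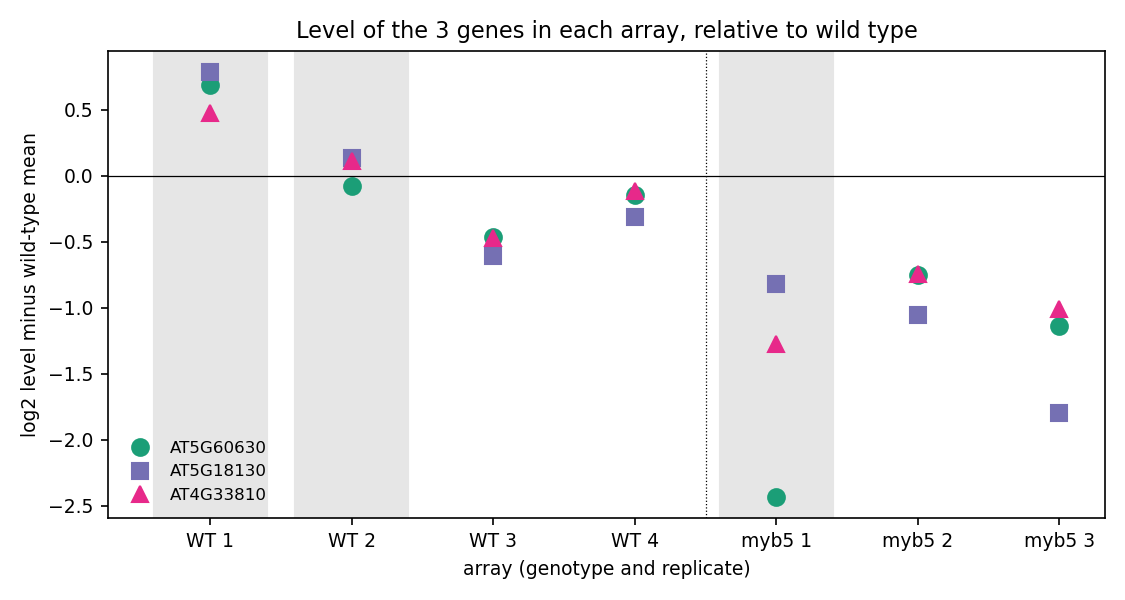
Normalized log2 level of the 3 genes in each array, minus the gene's own wild-type mean. Shaded columns are wild-type replicates 1 and 2 with myb5 replicate 1. In wild type the markers share 1 order, from replicate 1 at the top to replicate 3 at the bottom, while in myb5 replicate 1 AT5G60630 lies at -2.43 and AT5G18130 at -0.82.

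The arrays as a whole split across the genotypes, and the first principal component (56.8% of the variance) separated 3 arrays, wild-type replicates 1 and 2 with myb5 replicate 1, from the other 4. Markers of several kinds moved with this split. OLEO3, an oleosin of seed oil bodies, and PAP85, a storage protein gene, are 2 of 14 listed markers and the ones measured, and their summed intensity ran from 5075 to 7343 in these 3 arrays, against 628 to 1485 elsewhere. By genotype that sum ran from 836 to 7343 among wild-type arrays and from 628 to 5416 among myb5 arrays. The summed tannin genes of the seed coat, BAN, DFR and UGT80B1, went the other way, at 4459 to 5333 in the 3 arrays against 8804 to 12393 elsewhere. BAN and DFR made up most of that sum and each went this way. UGT80B1 overlapped across the split, at 193 to 223 in the 3 arrays and 216 to 257 elsewhere. By genotype the tannin sum overlapped, at 4459 to 12393 for wild type and 5031 to 10714 for myb5. The measured markers of endosperm (IKU2 and AGL62) and embryo (CLV3) were dim, with means from 3.32 to 9.56, so they tell little about those tissues. Of 7 fruit wall and green tissue markers 2 were measured, and their sum ran from 544 to 622 in the 3 arrays and from 262 to 365 elsewhere, with 300 to 622 among wild-type and 262 to 544 among myb5 arrays. They moved in opposite directions along the split. RCA, the activase of photosynthetic carbon fixation, was at 473 to 573 in the 3 arrays and at 145 to 249 elsewhere. ALC, a gene of fruit opening, was at 49.3 to 70.9 in the 3 arrays and at 78.1 to 120 elsewhere. The part of these markers in the differences of the 3 genes was not tested.

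Set beside that split, the 3 genes differed in behaviour. In wild type, both arrays of the set of 3 lay above the other wild-type arrays for each gene, by 0.61 for AT5G60630, 0.92 for AT5G18130 and 0.59 for AT4G33810 in mean log2 level. In myb5, the single array of that set was higher than the others by 0.61 for AT5G18130. It was lower than the others for the remaining pair, with log2 differences of -1.49 for AT5G60630 and -0.40 for AT4G33810. AT5G18130 therefore ran with the split in both genotypes, and AT5G60630 and AT4G33810 ran with it in wild type and against it in myb5, where 1 array carries the comparison and no test was made.

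The size of the genotype difference was not the same in the 2 sets of arrays. Within the set of 4 arrays, with 2 samples of each genotype, the log2 difference was -0.63 for AT5G60630, -0.97 for AT5G18130 and -0.60 for AT4G33810. Within the set of 3 arrays, with 1 myb5 sample, it was -2.81, -1.25 and -1.54. With a term for the split in the fit of all 7 arrays, it was -1.48, -1.09 and -0.98. That each of these is negative follows from the rule, which chose genes with every myb5 array below every wild-type array.

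**Figure D4:**
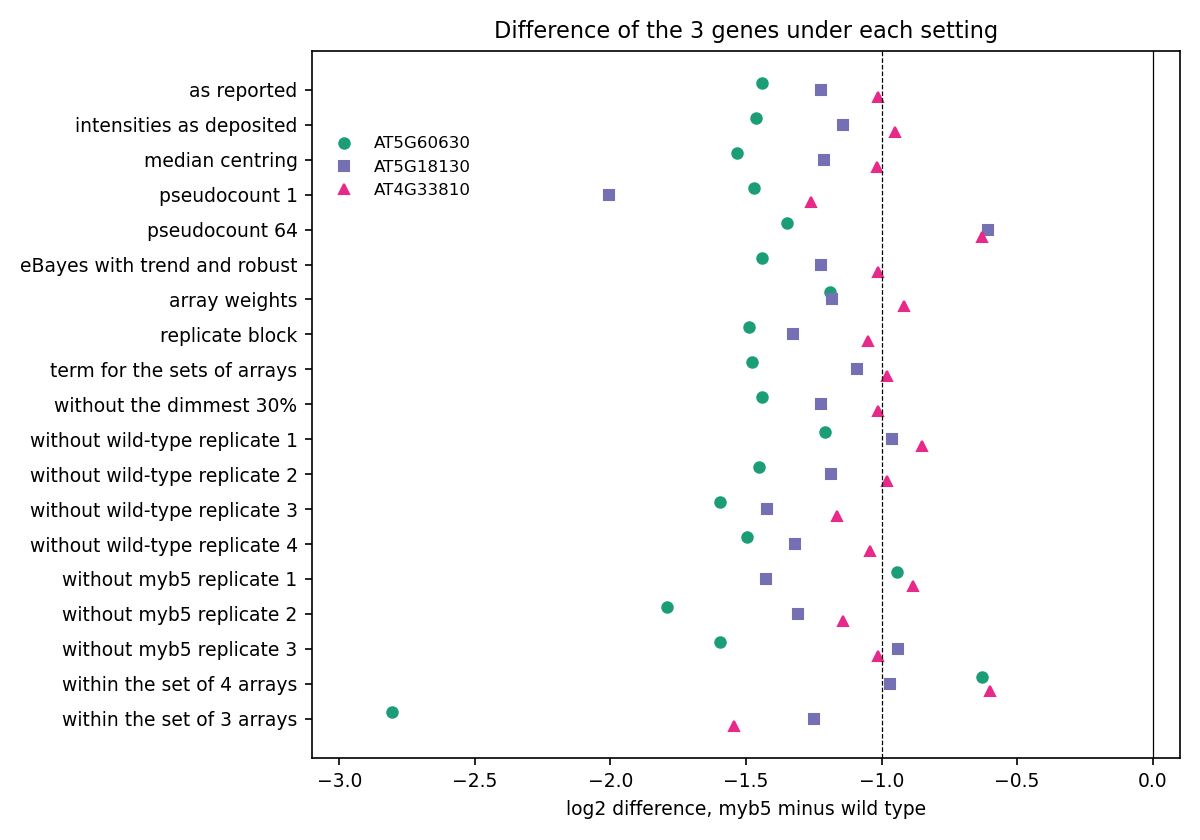
Log2 difference (myb5 minus wild type) of the 3 genes as reported and under 18 other settings, with a dashed line at a 2-fold difference. The sizes run from -2.81 for AT5G60630 within the set of 3 arrays to -0.60 for AT4G33810 within the set of 4 arrays, and their common sign is set by how the genes were chosen.

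The profiles of the 3 genes were compared over the 7 arrays by the root mean square difference of their mean-centred log2 levels, where 0 means the same profile. AT4G33810 was the nearest gene to AT5G60630, at 0.41, ahead of every other gene among 5617 candidates with a mean intensity of at least 64 and a probe set of their own. AT1G17860 at 0.51 and AT1G56210 at 0.66 came next. A flat profile would lie at 0.91 from AT5G60630, so AT1G56210 shared less of it. AT1G17860 and AT1G56210 also had myb5 replicate 1 as their lowest array, at intensities of 30.4 and 63.3. The likeness was not mutual, as 28 of 5617 candidates lay nearer to AT4G33810 than AT5G60630 did. For AT4G33810, 16 candidates also lay nearer than AT5G18130. For AT5G18130, 5 of 5618 candidates lay nearer than AT4G33810, and 872 lay nearer than AT5G60630. AT5G18130 was itself too dim to be a candidate.

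The genes nearest to AT5G18130 were AT5G16250 at 0.33, AT5G48360 at 0.33 and AT1G07280 at 0.34. These differed from it in one respect. Their genotypes overlapped, with AT5G16250, for example, at 1143 in myb5 replicate 1 and at 788 in wild-type replicate 3. Like AT5G18130, all 3 were lowest in myb5 replicate 3. The genes nearest to AT4G33810 were AT3G06840 at 0.28, AT5G66310 at 0.32 and AT1G66620 at 0.32. Of these, AT5G66310 and AT1G66620 lay lower in myb5 without overlap, at log2 differences of -0.53 and -0.57. Because the genotype difference is part of each profile, likeness over these arrays partly repeats the rule.

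**Figure D5:**
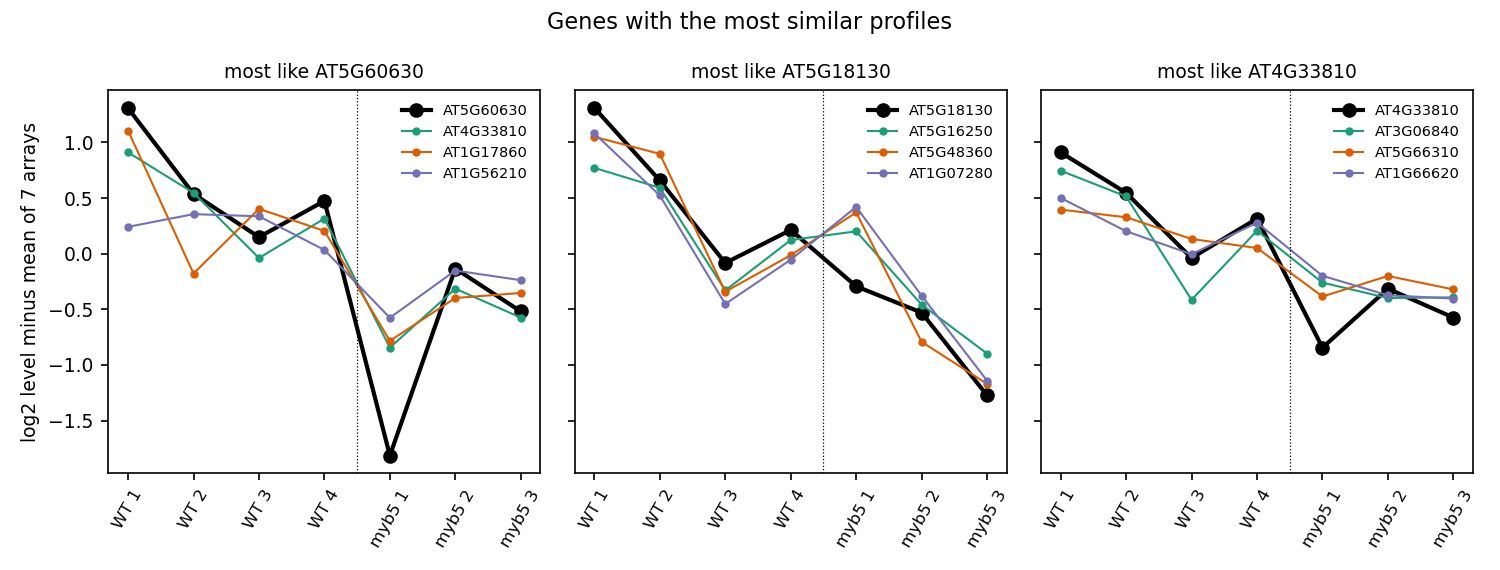
Normalized log2 level in each array, minus the mean of the 7 arrays, for each of the 3 genes (black) and the 3 genes with the most similar profile (colours). Lines only link the points of a gene, and the samples have no order. The drop to -1.82 in myb5 replicate 1 is deeper in AT5G60630 than in the genes most like it.

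The other genes of glycoside hydrolase family 10 were set beside AT4G33810. Of 12 listed genes 5 were measured, and of the other 4 none passed limma's threshold in either direction or had an unadjusted p under 0.05 (0 and 0). Over all probe sets these shares were 0.0044% and 3.46%, so 0 of 4 is near the background. Their median log2 difference was -0.098, against -0.00035 over all probe sets tested. AT2G14690 was at 685, 350, 48.6 and 108 in wild-type replicates 1 to 4. In myb5 replicates 1 to 3 it was at 696, 101 and 64.02. Unlike AT4G33810, it was high in myb5 replicate 1, and its genotypes overlapped, the log2 difference being -0.21 (standard error 1.01). AT1G10050 was dim, with means of 29.2 ± 6.5 (SD, n = 4) for wild type and 23.8 ± 10.6 (SD, n = 3) for myb5, -0.27 apart on the log2 scale. AT4G08160 and AT4G33860 had means from 0.96 to 10.6, below the added constant.

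Genes that act on xylan in other ways were measured in part, and with 0.0044% of all probe sets called, the absence of a call says nothing particular about them. In the beta-xylosidase family, whose enzymes release xylose from the ends of chains, 3 of 7 listed genes were measured and 0 passed, with a median log2 difference of -0.20. AT1G78060 had the most negative of these, -0.38 with a standard error of 0.36, and AT5G10560 and AT3G19620 were at -0.11 and -0.20. Of 18 genes for xylan synthesis 5 were measured and 0 passed, with a median of -0.077. GUT1 and GUT2, which encode glycosyltransferases of the xylan backbone, had log2 differences of -0.15 and 0.066. AT3G10320 and IRX15-L were at -0.17 and -0.028.

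The seed coat lists hold processes MYB5 is known for, and their counts of calls are read against the same share of 0.0044%. In the mucilage list 6 of 18 genes were measured, 0 passed and the median log2 difference was -0.057. The 4 brightest were ARA12, a subtilase, at -0.0020, AT5G49180 at 0.29, AT2G22900 at -0.37 and AT3G50990 at 0.16. In the tannin list 3 of 8 genes were measured and 0 passed, at 0.38 for BAN, 0.069 for DFR and 0.063 for UGT80B1. Of 14 listed regulators that act with or beside MYB5, 0 had a probe set naming them alone. Over all lists together, the 28 measured genes other than AT4G33810 included 0 with an unadjusted p under 0.05, a count near the 3.46% of all probe sets.

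The neighbours of the 3 genes on their chromosomes were looked at after the values above had been seen. For each gene these are the nearest loci on either side that have a probe set naming them alone, with 0 to 5 loci in between. Beside AT5G60630 on chromosome 5, AT5G60610 and AT5G60670 had log2 differences of -0.16 and 0.054. Beside AT5G18130, also on chromosome 5, AT5G18090 and AT5G18150 were at 0.16 and -0.18. Beside AT4G33810 on chromosome 4, the adjacent AT4G33800 was at 0.19, its mean intensities being 12.3 ± 6.93 (SD, n = 4) for wild type and 17.4 ± 5.06 (SD, n = 3) for myb5. AT4G33860, on the other side of AT4G33810 with 5 loci in between, was at 0.012, with mean intensities of 0.96 and 1.34. The signals of AT4G33800 and AT4G33860 lie near or below the added constant, which keeps their differences small. All 6 neighbours overlapped between the genotypes, and 0 passed limma's threshold or had an unadjusted p under 0.05. These counts are near those of all probe sets, of which 0.0044% passed, 3.46% had such a p and 2.17% lay lower without overlap.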

How the data were processed

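Seed RNA of 4 wild-type and 3 myb5 samples was hybridised to 1-colour arrays after oligo(dT)-primed amplification, per the labels' protocols, which favours the 3′ ends of transcripts. The deposited values are linear intensities made with software that the labels do not name. Every array had the same mean, 150.01, once 2% of the probe sets were dropped at each end, so arrays had been scaled before deposit. Control probe sets (64) were left out, log2(intensity + 16) was quantile normalized, and genotypes were compared with limma (version 3.58.1, R 4.3.3), lmFit and eBayes, with Benjamini-Hochberg adjustment over 22746 probe sets. The number of arrays limits the precision of each value.

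Gene names come from the annotation of the array, updated through a RefSeq gene table; 13513 probe sets name 1 gene (13436 found in that table), 503 several and 8730 none. The genes, lists and tests were chosen with earlier results of these data known. The lists were drawn up from general knowledge. Genes named are the 3 genes, the 3 nearest profiles of each, up to 3 genes on each side of the threshold, and the 4 brightest measured genes of each list; a planned search for related proteins was not run. Any other gene named was chosen after its values were seen. Alternatives were other normalizations, added constants of 1 and 64, leaving out the dimmest 30%, the replicate block, trend and robust settings, array weights, a term for the sets of arrays and leaving out each array; fits within each set of arrays were added after seeing the data. The fit was tested on simulated data.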

Additional observations from a re-analysis of the deposited data

Results flagged for a closer look

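A wild-type array far from the other wild-type arrays was found for 4 of 46 genes examined, where chance gives about 1 in 20 for genes not picked by their values. AT5G60630, AT5G18130 and AT4G33810 were not among them, and the myb5 group of 3 is too small for this search. On the normalized log2 scale, LCR67 lay at 7.23 in wild-type replicate 2, against 4.04 to 4.08 in the others. AT3G10320 lay at 6.5 in wild-type replicate 1, against 6.08 to 6.14. IKU2 lay at 4.68 in wild-type replicate 3, against 4.26 to 4.33, and CLV3 at 4.11 in the same array, against 4.5 to 4.55.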

How the results depend on the processing

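Of 18 alternatives, 16, 14 and 10 kept a difference of at least 2-fold for AT5G60630, AT5G18130 and AT4G33810. Their direction and lack of overlap were set by the rule and are no sign of stability. With an added constant of 1 the log2 difference of AT5G18130 was -2.0, and 112 probe sets met the rule in place of 10. With 64 it was -0.61 for AT5G18130 and -0.63 for AT4G33810, and 6 probe sets met the rule. Leaving out each array gave -1.79 to -0.94 for AT5G60630, -1.43 to -0.94 for AT5G18130, -1.16 to -0.85 for AT4G33810, 1 to 2 limma calls, and 9 to 75 probe sets meeting the rule. Of that last count, the 75 came from leaving out myb5 replicate 1, while leaving out wild-type replicate 3 gave 28 and wild-type replicate 4 gave 16; fewer arrays also overlap less often. Limma made 2 calls without myb5 replicate 1. Within the set of 4 arrays, added after seeing the data, the differences were -0.63 for AT5G60630 and -0.60 for AT4G33810, with 0 limma calls (1031 at an unadjusted p under 0.05). Within the set of 3 arrays they were -2.81 and -1.54, with 0 limma calls (673 at an unadjusted p under 0.05) and 49 probe sets meeting the rule; the lone myb5 array is assumed there to vary like the wild-type arrays. With the replicate block limma made 0 calls (1362 at an unadjusted p under 0.05), and the differences of the 3 genes were -1.49, -1.33 and -1.05. Samples numbered 1, 2 and 3 in both genotypes had correlations of 0.63, -0.30 and 0.55 in their departures from the genotype mean, so the numbers are not shown to pair them. The cause of these changes was not tested. The signal of AT5G18130 was dim in the myb5 arrays, at the 14.7th to 37.6th percentile, which limits how well its difference is known.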
